A study of Mus musculus with 8 samples.

Results

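The miR-29 family of mouse brown fat is described here through its 3 guide strands, mmu-miR-29a, mmu-miR-29b and mmu-miR-29c, and the passenger strands mmu-miR-29a*, mmu-miR-29b* and mmu-miR-29c*, named as the array names them (mmu, for mouse, is left out below where it is clear). The members were chosen by exact name, which gave 6 of the 566 mouse miRNAs on the array, carried by 16 probes. Brown adipose tissue came from 6 male C57Bl6N mice that were 8 weeks old. Mice 1, 2 and 3 had been exposed to 8 °C for 24 h, and mice 4, 5 and 6 had stayed at 21 °C, the room temperature of the study. Their total RNA, carrying a single dye, was read on Agilent miRNA arrays. Mice 1 and 4 had 2 arrays each, averaged so that n = 3 mice per group.

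Brown fat burns fuel to make heat, and cold drives it to do so through sympathetic nerves. A microRNA is cut from a hairpin precursor as a duplex. The guide strand is loaded into an Argonaute protein and pairs through its seed with target mRNAs, whereas the passenger strand, marked with an asterisk in the older naming, is mostly degraded. The miR-29 guides are best known for repressing collagen and other extracellular matrix mRNAs, and in insulin-responsive tissues they have been tied to insulin signalling. The mouse genome carries the family in a pair of clusters, and miR-29b is made from both.

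The mature sequences are shown because the 3 guides share a seed while the passengers do not, and because the guides differ by so few bases that a probe must tell near-identical RNAs apart. They are RefSeq sequences for assembly GRCm38.p6, 5′ to 3′, with the seed (bases 2 to 8) in capitals.
miR-29a (miR-29a-3p): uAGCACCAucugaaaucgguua
miR-29b (miR-29b-3p): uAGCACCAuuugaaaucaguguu
miR-29c (miR-29c-3p): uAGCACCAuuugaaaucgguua
miR-29a* (miR-29a-5p): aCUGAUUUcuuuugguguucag
miR-29b-1-5p: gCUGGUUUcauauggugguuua
miR-29b-2-5p: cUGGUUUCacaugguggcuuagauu
miR-29c* (miR-29c-5p): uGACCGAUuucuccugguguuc

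The guide seed was shared by these 3 of the 1679 mature names in the RefSeq table. Counted from the 5′ end, miR-29a and miR-29c differed by the single substitution C10U. From miR-29b to miR-29c the substitutions were A18G, G21U and U22A, and from miR-29a to miR-29b they were C10U, G18A, U21G and A22U. By name, 5 of the 6 members had a RefSeq match. The array name miR-29b* does not say whether the strand from Mir29b-1 or from Mir29b-2 is meant. The files used here give no probe sequence, so how far a probe for one sister also reads another was not tested.

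In GRCm38.p6, Mir29b-2 lies at chr1:195037040-195037120 and Mir29c at chr1:195037547-195037634, both on the plus strand. The hairpins are 426 bases apart, and both overlap the long non-coding RNA gene A330023F24Rik. Mir29a lies at chr6:31062660-31062747 and Mir29b-1 at chr6:31063023-31063093, both on the minus strand and 275 bases apart. No other gene of the RefSeq table overlaps them.

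A property of the arrays bears on every value below. The 8 arrays shared 1 slide, where cold arrays filled one slide row and those of mice at room temperature filled the other. Slide row and temperature therefore cannot be told apart. The 75th percentile of bright probes was 793 ± 149.7 signal units in the cold and 1085 ± 286 at room temperature (SD, n = 3; exact permutation p = 0.2). Each probe was printed in 5 to 10 spots for the family, scattered over the 192 rows of spots within an array. Spots of probes well above background on all arrays were compared with the median of their own probe. In rows 1 to 16, the median deviation in log2 was −3.48 to −3.10 in the 3 cold mice and −0.17 to 0 in the 3 mice at room temperature. In rows 177 to 192 the order was turned: it was −3.42 to −2.89 in the mice at room temperature and −0.37 to 0.099 in the cold mice. Both ends of the array thus separated the groups, in opposite directions, and rows 81 to 112 differed least, by −0.063 and 0.055 (cold minus room temperature).

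**Figure D1:**
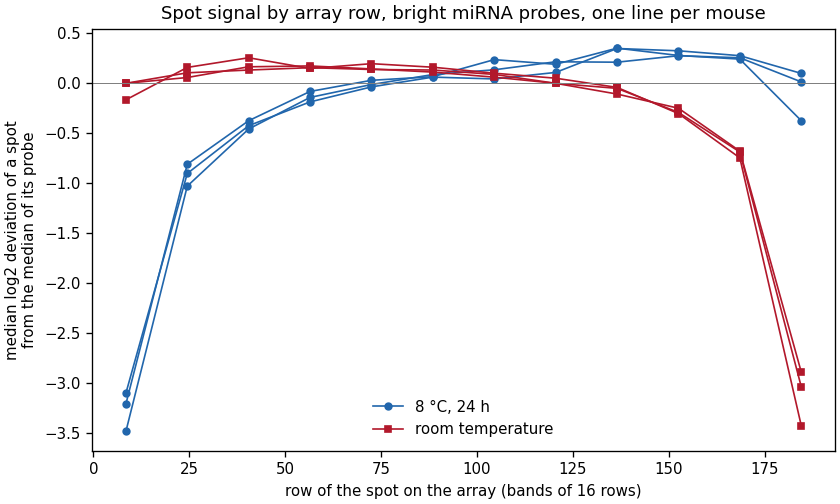
Median log2 deviation of a spot from the median of its own probe (y) against the row of the spot on the array in bands of 16 rows (x), over probes well above background on all arrays, 1 line per mouse. The 3 cold mice fall to below −3 in rows 1 to 16, and the 3 mice at room temperature fall to about −3 in rows 177 to 192.

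The family's values are therefore given in 3 forms. The first averages a probe's spots wherever they lie. The position-corrected form removes each array's own trend over rows and columns, and the middle-row form uses spots of rows 49 to 144 only; both were added after the data had been seen. Levels are log2 of signal divided by the array's 75th percentile, changes are cold minus room temperature, and p-values come from limma over all 189 miRNAs (or 329 probes) that passed the filter, adjusted by Benjamini-Hochberg with a threshold of 0.05.

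The guide strands were the brightest members, and their 6 probes were well above background on all 8 arrays. Repeat arrays of one mouse differed by 0.0059 to 0.27 in a guide's mean over its probes. Single probes differed more, as A_54_P1011 did with −1.60 and −0.87 on the arrays of mouse 1. Repeat arrays lay in the same slide row, so their likeness does not bear on the trend over spot rows. Within an array the spots of a guide probe varied widely. The median SD was 52% to 68% of the mean by probe, and the highest was 114.9%. mmu-miR-29a, the sister made beside miR-29b-1, had scaled log2 levels of 0.95, 1.35 and 1.22 in cold mice 1 to 3 and of 1.58, 1.36 and 1.30 in mice 4 to 6 at room temperature. Cold mouse 1 was lowest, and the groups overlapped. The change was −0.24 ± 0.15 (SE, n = 3 per group; limma adjusted p = 0.312), with a 95% interval from −0.59 to 0.12.

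mmu-miR-29b, the sister made from both clusters, had levels of 0.20, 0.54 and 0.61 in the cold and of 0.67, 0.42 and 0.69 at room temperature. Mouse 1 was again lowest, and the groups overlapped. Its change was −0.15 ± 0.16 (SE; limma adjusted p = 0.531), with a 95% interval from −0.51 to 0.22.

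mmu-miR-29c, made beside miR-29b-2, had levels of −0.26, −0.12 and −0.15 in the cold and of 0.24, 0.17 and 0.085 at room temperature. Every cold mouse lay below every mouse at room temperature, as the groups of 38.6% of the 189 miRNAs also stood apart in either direction. The change of −0.34 ± 0.12 (SE; 95% interval from −0.62 to −0.061) did not pass the threshold (limma adjusted p = 0.0957). None of the 3 guides was called in this form, in which 15.3% of all miRNAs were.

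With position-corrected spots the changes of miR-29a, miR-29b and miR-29c were −0.27 ± 0.17, −0.076 ± 0.16 and −0.14 ± 0.12 (SE; limma adjusted p = 0.3996, 0.828 and 0.521; 6.88% of miRNAs were called). With middle-row spots they were −0.36 ± 0.17, 0.13 ± 0.18 and −0.23 ± 0.14 (limma adjusted p = 0.212, 0.626 and 0.304; 12.2% of miRNAs were called). In that form the groups of miR-29a did not overlap (36.0% of miRNAs). No guide passed the threshold in any of the 3 forms. The position-corrected change of miR-29c was under 0.5 times the first form's, its groups still did not overlap (31.2% of miRNAs in that form), and its 95% interval ran from −0.42 to 0.13. A 2-fold fall lay outside the 95% interval of each guide's mean over its probes in all 3 forms, though not of every probe: in the first form the intervals of A_54_P2488 (−1.06 to −0.25) and A_54_P2492 (−1.25 to −0.63) hold one. These intervals hold only the spread between mice after scaling, and slide row cannot be told apart from temperature. Without scaling miR-29a, miR-29b and miR-29c changed by −0.68, −0.59 and −0.78 (SE 0.36 each). A 2-fold fall is therefore not excluded.

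**Figure D2:**
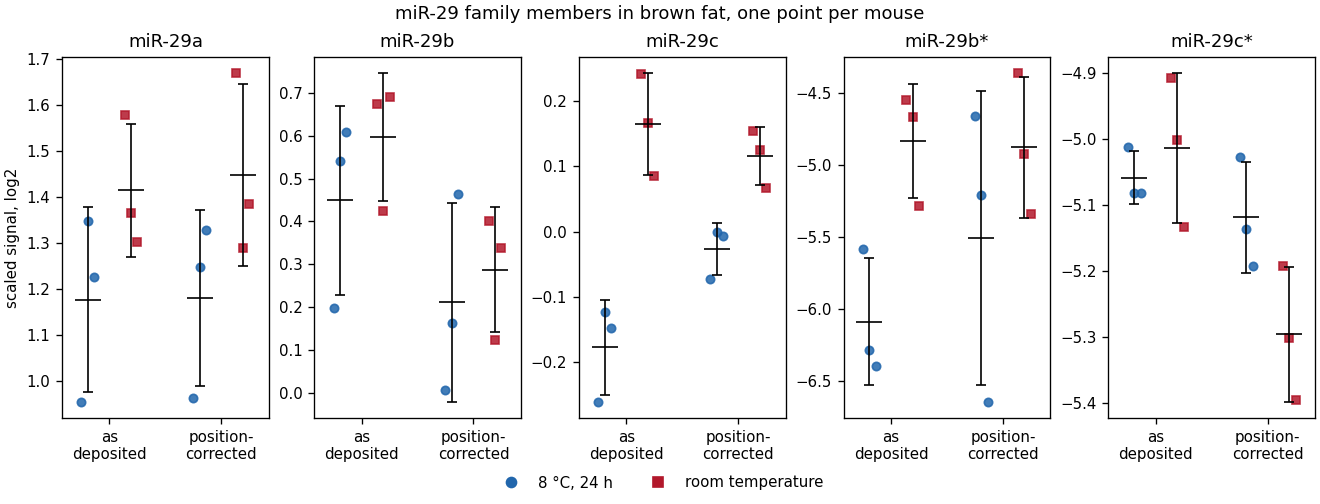
Scaled log2 signal (y) of the 5 measured members, 1 point per mouse, for cold (circles) and room temperature (squares), with probe spots averaged as deposited and after position correction. Bars are means ± SD over 3 mice, and each panel has its own y range. miR-29c and miR-29b* separate the groups as deposited, and after correction the gap of miR-29c narrows and the groups of miR-29b* overlap. The corrected miR-29b* value of cold mouse 3 is the floor.

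Each guide was read by a pair of probes, and for miR-29a and miR-29c the probes gave opposite changes. For miR-29a, probe A_54_P2488 read 599, 1035 and 1213 signal units in the cold and 2068, 1509 and 2339 at room temperature. All cold mice were lower (the groups of 44.7% of probes stood apart in scaled values), and the scaled change was −0.65 ± 0.18 (SE; limma adjusted p = 0.0353 over 329 probes, of which 24.3% were called in all and 10.0% were called lower). Probe A_54_P2489 for the same miRNA read 2466, 4371 and 3793 units in the cold and 4220, 3268 and 5154 at room temperature. Here the groups overlapped, with a scaled change of 0.18 ± 0.16 (limma adjusted p = 0.463).

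For miR-29c, probe A_54_P2492 read 366, 523 and 591 units in the cold and 1173, 1107 and 1532 at room temperature. Every cold mouse lay far below every mouse at room temperature, and the scaled change was −0.94 ± 0.14 (SE; limma adjusted p = 0.00665). Probe A_54_P2493 read 758, 1126 and 1161 units in the cold and 1158, 847 and 1457 at room temperature. Its units overlapped between the groups; once scaled, all cold mice were higher, by 0.26 ± 0.14, which did not pass the threshold (limma adjusted p = 0.211).

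The probes of miR-29b changed less: by −0.036 ± 0.19 for A_54_P1011 and by −0.26 ± 0.17 for A_54_P1012 (SE; limma adjusted p = 0.893 and 0.320). So 2 of the 6 guide probes were called, both lower, and they belonged to different sisters; over all probes 24.3% were called, 10.0% lower.

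Brighter minus dimmer probe, taken within each array, does not depend on scaling by a factor. For miR-29c it was 1.03, 1.11 and 0.98 in the cold and −0.016, −0.39 and −0.072 at room temperature. The groups stood far apart (44.0% of such groups did not overlap), by 1.20 ± 0.18 (SE; limma adjusted p = 0.000215 over 125 miRNAs with several kept probes). For miR-29a it was 2.04, 2.08 and 1.65 in the cold against 1.02, 1.11 and 1.14 at room temperature, a shift of 0.83 ± 0.18 (limma adjusted p = 0.00393). Such disagreement was common on these arrays: 32.8% of the 125 miRNAs were called, 15.2% with the brighter probe higher in the cold, and the median size of the shift was 0.36, with miR-29c at rank 4 and miR-29a at rank 15 by size. The shifts of miR-29b, −0.22 ± 0.19, and of miR-29c*, −0.053 ± 0.19, did not pass the threshold (limma adjusted p = 0.383 and 0.842).

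The position of the spots moved with this disagreement. The spots of A_54_P2492 lay at a mean row of 62.8, with 8 of 10 in rows 1 to 96, and those of A_54_P2493 at a mean row of 116.8, with 6 of 10 in rows 97 to 192. This gap of 54.0 rows was the second highest of the 125 miRNAs; that of miR-29a was 18.9 rows, of miR-29c* −3.50 and of miR-29b −26.8. Over the 125 miRNAs the gap in mean row and the shift correlated at Pearson r = 0.83, a description over miRNAs that share the same 8 arrays.

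Single spots of one probe showed the same turn. The 4 spots of A_54_P2493 in rows 1 to 96 were all lower in the cold, by 1.18 log2 units on average, while in rows 97 to 192 the change averaged 1.62 and 5 of 6 spots were higher. At row 41 this probe read 499.7, 655 and 482 units in the cold against 2288, 1546 and 2478 at room temperature. At row 187 it read 180.3, 1387 and 1475 units against 68.2, 99.6 and 119.7, so the same probe separated the groups in opposite directions at either end of the array. The other guide probes behaved alike: their mean change was between −2.20 and −0.46 in rows 1 to 96 and between 0.39 and 2.30 in rows 97 to 192.

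**Figure D3:**
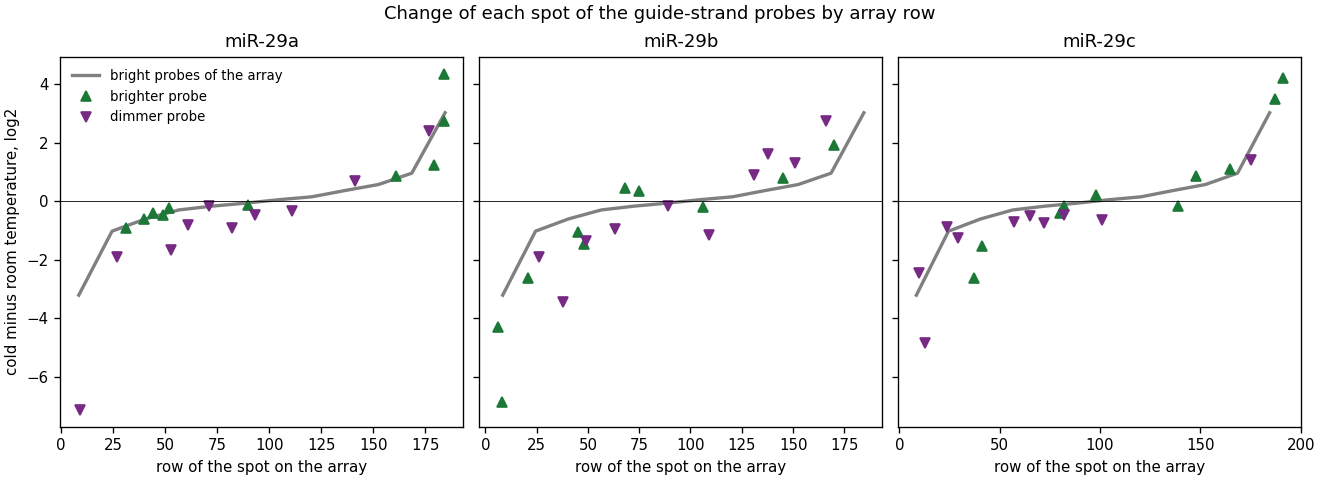
Cold minus room temperature in log2 (y) of each of the 10 spots of every guide-strand probe against the spot's row on the array (x), with the brighter (up triangles) and dimmer probe (down triangles) of each miRNA. The grey line is the cold minus room temperature median deviation of bright probes in bands of 16 rows. Spots of both probes run from below 0 in the first rows to above 0 in the last rows.

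With position-corrected spots the shift between the probes of miR-29c was 0.17 ± 0.16 (SE; limma adjusted p = 0.685) and its groups overlapped. That between the probes of miR-29a was 0.46 ± 0.18 (limma adjusted p = 0.180), without overlap (25.6% of the 125 in that form). Of the 125 miRNAs, 7.20% were called in that form, against 32.8% before. The correction removes a trend over rows by its construction, and the correlation with the gap in rows was then −0.027. In middle-row spots the shift of miR-29c was 0.59 ± 0.14 and that of miR-29a 0.26 ± 0.20 (limma adjusted p = 0.116 and 0.486), and 1.63% of 123 miRNAs were called.

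**Figure D4:**
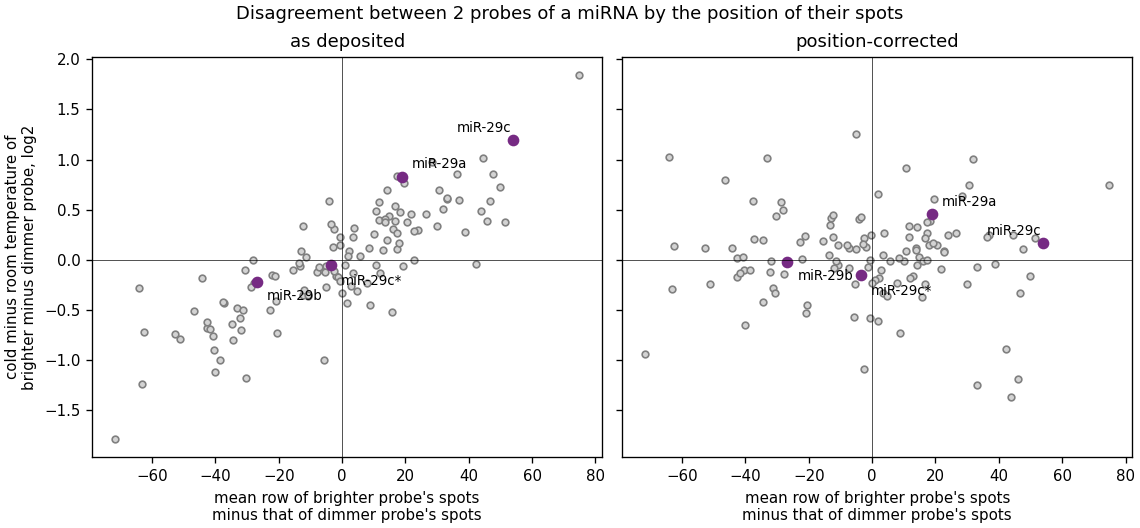
Cold minus room temperature of the brighter minus the dimmer probe in log2 (y) against the gap between the mean rows of the probes' spots (x), for 125 miRNAs, as deposited (left) and after position correction (right), with the miR-29 family labelled. As deposited the points rise with the gap (r = 0.83) and miR-29c lies near the upper right end. After correction r is −0.027 and miR-29c lies at 0.17.

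Single probes moved by unlike amounts. Position-corrected, A_54_P2492 changed by −0.22 ± 0.14, without overlap (32.2% of probes), and A_54_P2493 by −0.060 ± 0.14 (SE; limma adjusted p = 0.351 and 0.844), so the sign was the same. A_54_P2488 changed by −0.50 ± 0.19, also without overlap, and A_54_P2489 by −0.038 ± 0.18 (limma adjusted p = 0.146 and 0.934). In the first form A_54_P2488 had changed by −0.65. Of all probes, 10.0% were called in this form, and none of the 6 guide probes was. In middle-row spots A_54_P2492 was the one guide probe called, at −0.53 ± 0.13 (limma adjusted p = 0.0480), where 9.79% of probes were. There A_54_P2488 changed by −0.49 ± 0.18 and was not called (limma adjusted p = 0.124). Both probes separated the groups in middle-row spots, and the share of all probes that did was not computed.

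**Figure D5:**
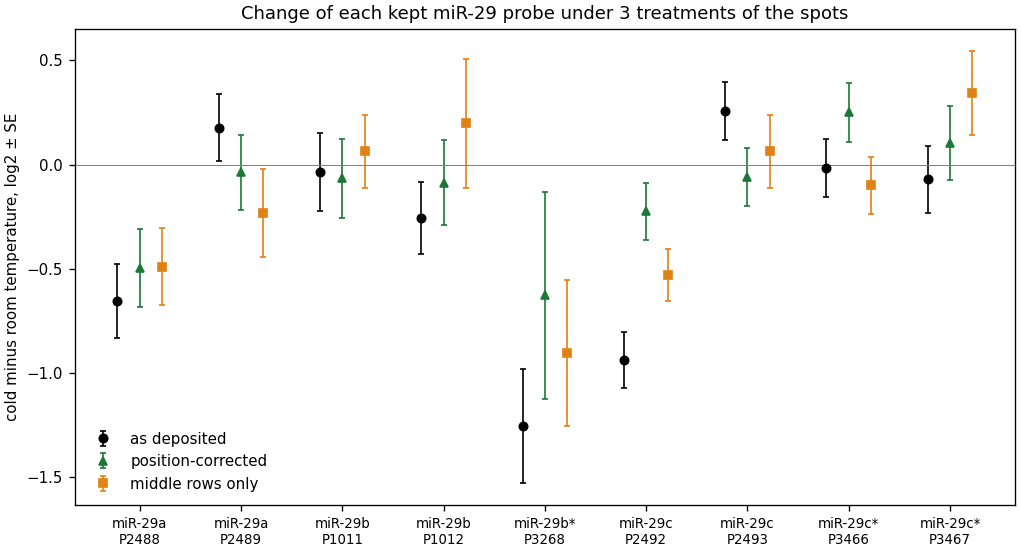
Cold minus room temperature in log2 ± SE (y) of the 9 kept probes of the family (x), with spots as deposited (circles), position-corrected (triangles) and from rows 49 to 144 only (squares), n = 3 mice per group. The gap between A_54_P2492 and A_54_P2493 of miR-29c is wide as deposited and narrow after correction.

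Changes of one sister relative to another were compared by exact permutation test over mice, 2-sided, for which 0.1 is the smallest p that 3 mice against 3 allow. Only the change is interpretable, since levels of different probes are not comparable. miR-29a minus miR-29b changed by −0.092 ± 0.12 (SE; exact p = 0.6), miR-29a minus miR-29c by 0.10 ± 0.087 (exact p = 0.3) and miR-29b minus miR-29c by 0.19 ± 0.13 (exact p = 0.2). The groups overlapped in each pair, and over the 5 pairs computed (3 of sisters, 2 of guide and passenger) adjusted p-values ran from 0.333 to 0.6. Position-corrected, the same changes were −0.19, −0.13 and 0.066, again with overlap (exact p = 0.2, 0.5 and 0.8). In middle-row spots they were −0.49, −0.13 and 0.36, and the pairs that hold miR-29b did not overlap (exact p = 0.1 in both, adjusted p = 0.167). In that form the groups of 36.0% of single miRNAs stood apart. The share among pairs of other miRNAs was not computed, so this separation is a description. Over the 6 mice, levels of miR-29a correlated with those of miR-29c at Pearson r = 0.85 and with those of miR-29b at 0.75, and miR-29b with miR-29c at 0.56, as a description of values that share the same arrays.

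The passenger strands were dim. miR-29b* had 4 probes, of which only A_54_P3268 was kept, and it passed the filter through the room temperature group alone, being well above background on 4 of 4 arrays there and on 2 of 4 in the cold. It read 13.2, 10.7 and 10.9 units in cold mice 1 to 3 and 42.1, 34.0 and 36.1 units in mice 4 to 6. All cold mice were lower, and unscaled units at room temperature were 3.23 times those in the cold. The scaled values differed by −1.26 ± 0.27 (SE; limma adjusted p = 0.0205; 6.88% of miRNAs were called lower). This is given as a description: passing the filter only where a probe is high favours a difference. So neither the p nor the size is evidence of a fall, and the value stood on 1 probe.

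All 5 spots of A_54_P3268 read lower in every cold mouse than in every mouse at room temperature, in units before scaling. At row 8 the spot read 3.54, 5.06 and −2.80 units in the cold against 49.2, 34.0 and 36.1. At row 133, where the array's own trend was 0.61 higher in the cold, it read 20.8, 19.2 and 17.7 units against 49.2, 36.9 and 37.5. These spots belong to the probe chosen as above, so their common direction was favoured by that choice and is no separate evidence of a fall.

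The adjusted p of miR-29b* was above the threshold in both other forms. Its position-corrected change was −0.63 ± 0.51 (SE; limma adjusted p = 0.509) with overlapping groups. Cold mouse 3, whose spot at row 8 was below 0 units, was lowest at −6.64. That value is the floor of 0.01 in log2, not a measured level. The SD of the cold group was 1.02 in this form and 0.44 in the first form. With the 3 spots of the middle rows the change was −0.91 ± 0.34 (limma adjusted p = 0.126), the scaled groups overlapping. The 2 arrays of mouse 1 differed by 0.66 in miR-29b*, over 0.5 times the change.

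A dimmer probe for miR-29b*, A_54_P3267, was well above background on no array. It read 3.30, 3.55 and 2.38 units in the cold and 7.42, 6.38 and 7.68 at room temperature (exact permutation p = 0.1). In units the groups did not overlap, but scaled the probe was at the floor on all 8 arrays, so it gives no scaled change. The share of all probes whose unscaled groups stand apart was not computed. Probes for viral miRNAs, which mouse tissue should lack, averaged 1.37 ± 0.64 units in the cold and 0.76 ± 0.42 at room temperature (SD, n = 3). The remaining probes, A_54_P3265 and A_54_P3266, stayed under 3 units in every mouse.

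miR-29c* was measured by A_54_P3467 on all 8 arrays and by A_54_P3466 on 2 of 4 cold and 4 of 4 room temperature arrays. A_54_P3466 thus passed the filter through the room temperature group alone, so the mean over both probes and its p are a description. Scaled levels of miR-29c* were −5.01, −5.08 and −5.08 in the cold and −4.91, −5.00 and −5.13 at room temperature. The groups overlapped and lay close, with a change of −0.045 ± 0.12 (SE; limma adjusted p = 0.832; 95% interval from −0.33 to 0.24). The sign turned with position-corrected spots, to 0.18 ± 0.13, and with middle-row spots, to 0.12 ± 0.12 (limma adjusted p = 0.467 and 0.511). A_54_P3467 alone changed by −0.071 ± 0.16 in the first form (SE, limma adjusted p = 0.786).

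miR-29a* had no kept probe and so no limma test in any of the 3 forms. Of its 4 probes, A_54_P3463 was brightest, at 7.25, 8.44 and 17.5 units in the cold and 3.53, 6.61 and 12.6 at room temperature (exact permutation p = 0.5). It was well above background on 1 array of each group, and the groups overlapped. The other probes were above background on no array and stayed under 4 units in every mouse. Among them A_54_P3461 read 1.79 to 3.44 units in the cold and 0.074 to 1.32 at room temperature, without overlap (exact permutation p = 0.1, the smallest possible). Scaled, it was at the floor on all 8 arrays. A difference in miR-29a* could not be judged at this signal.

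Guide minus passenger could be followed in 2 pairs. For miR-29b and miR-29b* the difference was 5.78, 6.83 and 7.01 in the cold and 5.22, 5.09 and 5.98 at room temperature. The groups overlapped through cold mouse 1, and the change was 1.11 ± 0.47 (SE; exact permutation p = 0.2, adjusted p = 0.333), the highest of the 13 guide and passenger pairs kept on the array. The guide changed by −0.15 and the passenger by −1.26, so this rank came from the passenger, whose probe passed the filter only where it was high. The other 11 pairs changed by −0.83 to 0.86, with a median of 0.0064. Position-corrected, with the passenger of cold mouse 3 at the floor, the change of miR-29b minus miR-29b* was 0.55 ± 0.77 (exact p = 0.7). In middle-row spots it was 1.04 ± 0.47 (exact p = 0.2).

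For miR-29c and miR-29c* the difference was 4.75, 4.96 and 4.93 in the cold and 5.15, 5.17 and 5.22 at room temperature. Every cold mouse was lower, as the groups of 46.2% of the 13 pairs stood apart. The change was −0.30 ± 0.069 (SE; exact permutation p = 0.1, the smallest possible; adjusted p = 0.333). It was −0.32 ± 0.078 with position-corrected and −0.36 ± 0.12 with middle-row spots, without overlap in either (exact p = 0.1 in both). How many of the 13 pairs stood apart in these added forms was not computed. In contrast to the single strands, the change of miR-29c minus miR-29c* hardly moved with the position of the spots. It reversed, to 0.33, when the brightest probe alone stood for each miRNA. The mean of miR-29c* holds A_54_P3466, which passed the filter through the room temperature group alone, so this change and its p are a description.

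The 3 other miRNAs whose levels followed each member most closely over the 6 mice were taken by rule. For miR-29a these were miR-142-5p, miR-25 and miR-148a (Pearson r = 0.94, 0.89 and 0.88), and for miR-29b they were miR-142-5p, miR-219 and miR-142-3p (0.91, 0.89 and 0.87). For miR-29c they were miR-199a-3p, miR-99a and miR-186 (0.94 each). With position-corrected spots the r of miR-29c was 0.83 with miR-199a-3p, 0.89 with miR-99a and −0.15 with miR-186. In the order named, it was 0.88, 0.33 and 0.85 for miR-29a and 0.71, 0.72 and 0.62 for miR-29b. miR-29b* was nearest to miR-199b*, miR-185 and miR-133a* (0.98, 0.94 and 0.94, or 0.59, 0.61 and 0.78 position-corrected). miR-29c* was nearest to miR-30c-2*, miR-709 and miR-872 (0.83, 0.79 and 0.75, or 0.90, 0.55 and 0.22 position-corrected). Values within a mouse share an array and its trend.

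Among 12 other miRNAs linked to fibrosis, the process that miR-29 is best known to restrain, 10 were measured. The median change was −0.19 against −0.022 for all miRNAs. Of all miRNAs 6.88% were called lower, and of the list 3 were. These were miR-199a-3p (−0.77 ± 0.12, limma adjusted p = 0.0105) and miR-214 (−0.75 ± 0.13, adjusted p = 0.0121), which stromal cells make together, and the muscle miRNA miR-133a (−1.88 ± 0.44, adjusted p = 0.0229). Position-corrected, miR-214 and miR-133a were called (2.12% of miRNAs were called lower), and miR-199a-3p changed by −0.41 ± 0.14 (SE; limma adjusted p = 0.125). In middle-row spots miR-199a-3p and miR-214 were called lower and miR-133a was not (limma adjusted p = 0.0350, 0.0372 and 0.0801), where 8 of 189 miRNAs were called lower. miR-199a-5p, the other arm of miR-199a-3p, was named here after its value was seen. In the first form it was higher in the cold by 0.68 ± 0.31 without overlap and was not called (limma adjusted p = 0.169). Its change was −0.066 position-corrected and −0.099 in middle-row spots. Of 8 miRNAs linked to insulin action, all were measured and none was called; miR-27a, miR-320 and miR-223 had the smallest p, with changes of −0.46, 0.28 and −0.38 (limma adjusted p = 0.116, 0.150 and 0.150). In middle-row spots miR-27a was called lower and miR-320 higher, where 8 of 189 miRNAs were called lower and 15 higher. Position-corrected, neither was called, with changes of −0.22 and 0.53 (limma adjusted p = 0.4985 and 0.0579).

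The brown fat miRNAs miR-193b, miR-365, miR-378, miR-455, miR-182 and miR-203 were all measured, and miR-193b and miR-378 were called higher, as 8.47% of miRNAs were. The others were not called: miR-182, miR-203 and miR-455 changed by 0.40, 0.42 and 0.13, and miR-365 by −0.074 (limma adjusted p = 0.0864, 0.140, 0.741 and 0.840). The list's signal, summed in multiples of each array's 75th percentile, was 10.3 to 13.0 in the cold and 8.08 to 9.70 at room temperature. Position-corrected, miR-378 was called and miR-193b was not (limma adjusted p = 0.0450 and 0.128), where 9 of 189 miRNAs were called higher. In that form miR-182 and miR-365 changed by −0.21 and −0.013. In middle-row spots miR-193b and miR-182 were called higher and miR-378 was not (limma adjusted p = 0.0282, 0.031 and 0.0970), where 15 of 189 were called higher. Of 7 striated muscle miRNAs, 5 were measured and 4 of these were called lower, where 6.88% of all miRNAs were. The other, miR-1, changed by −1.73 ± 0.51 without overlap and was not called (SE, limma adjusted p = 0.0549). Position-corrected 1 was called and in middle-row spots none was, while the list's median change was −1.89, −1.81 and −1.77 in the 3 forms. Their summed signal, in multiples of each array's 75th percentile, was 2.14 to 10.74 in the cold and 12.3 to 18.2 at room temperature, and each of the 7 was well above background on at least 1 array. The stromal and smooth muscle list had 6 miRNAs, of which 5 passed the filter. Of these, 3 were called lower in the first form, 2 position-corrected and 3 in middle-row spots. Over all miRNAs 6.88%, 2.12% and 8 of 189 were called lower in these forms. miR-199a-5p of this list went the other way in the first form, by 0.68 ± 0.31 without overlap, and was not called. The list's sums were 1.07 to 1.14 against 1.58 to 1.70, and miR-145 was above background on no array. The 7 leukocyte miRNAs, among them miR-142-5p, had no call, with sums of 0.817 to 1.25 against 1.35 to 1.44. Nor, in the first form, had the 3 erythroid (17.8 to 28.7 against 12.8 to 15.8) and 2 endothelial miRNAs (11.97 to 13.6 against 11.6 to 13.4) or the liver miRNA miR-122 (0.00127 to 0.00233 against 0.0071 to 0.206). In middle-row spots the erythroid miR-451 was called higher, by 0.67 ± 0.15 (SE, limma adjusted p = 0.0372). Fewer cells of a type and less RNA per cell cannot be told apart in whole tissue, and the part of these miRNAs in the values of miR-29b* and miR-29c was not tested.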

How the data were processed

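Each of the 8 deposited files holds one array's scanner output: background-subtracted spot intensity on a linear scale, written by the authors' Agilent Feature Extraction (10.7.3.1 per the file headers, 9.5.3.1 per the submitters' processing notes). The members and lists were chosen with earlier results of these data known. Outlier spots, between 2.09% and 2.63% of an array's miRNA spots, were dropped before spots were averaged by probe. Scaling used the 75th percentile of 267 probes that all arrays measured well above background, a floor of 0.01 was set after it, and values went to log2. The filter asked that, in 1 group at least, every array had over 0.5 of the probe's spots well above background; 329 of 1712 probes passed. A miRNA is the mean of its kept probes. Arrays of one mouse were averaged, and changes were tested with limma 3.58.1 in R 4.3.3; single values and pairs were tested with scipy 1.17.1 (exact permutation). No miRNA spot was saturated. The precision is limited by 3 mice per group.

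The position correction took spots of the 267 probes and fitted, per array, log2 signal as a probe term plus medians over bins of 8 rows and 8 columns, in 12 rounds; the interpolated trend was subtracted from every spot. It assumes that dim spots follow the trend of bright ones. It was checked on a simulated trend.

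Named miRNAs were the members, the 3 others with the highest Pearson r over the 6 mice for each, and, of the fibrosis and insulin lists, those past the threshold and the 3 with the smallest p. Alternatives covered scaling, background (normexp, offset 50, on the median spot signal), probe summaries, filters and left-out mice.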

Additional observations from a re-analysis of the deposited data

How the results depend on the processing

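Of 21 alternatives per member (20 for miR-29b*), miR-29a and miR-29b kept a negative change without a call in 20 each. The exceptions were the brightest probe for miR-29a (0.18) and middle-row spots for miR-29b (0.13). miR-29c became positive with the brightest probe (0.26) and was called with quantile normalisation (−0.35, limma adjusted p = 0.0496; adjusted p from 0.0496 to 0.521 over its alternatives). The adjusted p of miR-29b*, whose probe the filter took where it is high, stayed under the threshold in 11 alternatives. It did not with position-corrected spots (−0.63), middle-row spots (−0.91), no filter (−0.31), the first array of each mouse (−1.19) and without mouse 2, 3, 4 or 5 (−1.51 to −1.10 over left-out mice; adjusted p from 0.00496 to 0.0933), and was 0.0015 with normexp, whose offset of 50 exceeds its signal. miR-29c* turned positive with normexp (0.26), position-corrected (0.18) and middle-row spots (0.12), and ran from −0.10 to 0.0085 over left-out mice.

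Among probes, A_54_P2492 lost its call in 1 of 14 alternatives (position-corrected) and A_54_P2488 in 9. Without scaling, A_54_P2489 and A_54_P2493 became −0.26 and −0.18, and position-corrected −0.038 and −0.060; A_54_P2489 was −0.23 in middle rows. A_54_P1011 became 0.097 with quantile normalisation and 0.064 in middle rows (−0.15 to 0.13 over left-out mice), and A_54_P1012 0.20 in middle rows. A_54_P3268 was 0.0015 with normexp. A_54_P3466 became 0.30 with normexp and 0.25 position-corrected (−0.084 to 0.053 over left-out mice). A_54_P3467 became 0.23 with normexp, 0.089 with the median over spots, 0.10 position-corrected and 0.34 in middle rows (−0.16 to 0.041 over left-out mice).

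The probe shifts of miR-29a and miR-29c lost their calls in 2 of 13 alternatives, position-corrected (0.46 and 0.17) and middle-row spots (0.26 and 0.59), and ran from 0.75 to 0.97 and from 1.08 to 1.27 over left-out mice. That of miR-29b turned to 0.21 with the median over spots, 0.13 in middle rows and 0.019 with the first array. That of miR-29c* turned to 0.30, 0.45 and 0.045 under the same, and ran from −0.19 to 0.064 over left-out mice.

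Between sisters, miR-29a minus miR-29b became 0.43 with the brightest probe and 0.22 with the total signal. miR-29a minus miR-29c became −0.12 with the median over spots, −0.13 position-corrected, −0.13 in middle rows and −0.081 with the brightest probe. miR-29b minus miR-29c became −0.51 with the brightest probe and −0.022 with the total signal. miR-29b minus miR-29b* was −0.16 with normexp, and miR-29c minus miR-29c* 0.33 with the brightest probe.

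The count of miRNAs called, 29 in the first form, was 45 with quantile normalisation, 13 without scaling (0 higher and 13 lower, against 16 and 13), 6 with normexp, 13 position-corrected (9 higher, 4 lower), 16 of 158 with the filter on all 8 arrays, 5 of 566 with no filter, and 8 to 33 over left-out mice. The 80 probes called (33 lower) became 22 to 88 (9 to 40 lower) over 14 alternatives. The count of probe shifts called, 41, was 27 with normexp, 26 with the median over spots, 26 with quantile normalisation, 9 position-corrected, 2 in middle rows, 21 with the second arrays and 25 to 40 over left-out mice. The median change of all miRNAs moved from −0.022 to −0.46 without scaling, 0.21 with normexp and 0.14 in middle rows. Apart from the alternatives' own construction, causes were not tested. The alternatives on spot position, all those of the probe shifts, the median over spots for single probes, and for pairs no filter, the median over spots and quantile normalisation were chosen after seeing the data. No paired analysis was possible because the labels pair no mice. Signal near background limits all passenger strands.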
